A study of Mus musculus with 39 samples.

Results

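The cytochrome P450 genes are the protein-coding genes of chromosomes 1 to 19 whose symbols read Cyp, a number, a letter and a number, such as Cyp2c29. There were 93 of them among 20807 protein-coding genes of these autosomes in the GENCODE annotation of mm10. Of the 93 members, 71 lay less than 500 kb from another member and formed 10 tandem clusters, and 22 were single genes. The rule used symbols and positions and none of the domain calls described here, and all coordinates are those of mm10. A further 7 symbols of the family did not match the rule, 5 of them only because they end in a copy letter, and they are given as a group where they lie among the members.

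Cytochrome P450 enzymes carry a heme group and use molecular oxygen and electrons handed over by partner proteins to oxidise small molecules. One set of the genes makes and breaks down steroid hormones, bile acids, vitamin D and retinoic acid, and another set acts on fatty acids, drugs and other foreign compounds, mostly in the liver. Many genes of the second set arose by tandem duplication and stand side by side as near copies.

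The data come from R1 mouse embryonic stem cells, a wild type line whose tissue is given as inner cell mass, with no treatment in the libraries used here beyond the BrdU pulse of the timing assay. H3-wrapping-seq, a sequencing of the DNA fragments that MNase leaves on crosslinked nucleosomes after pull-down of histone H3, was made in 4 libraries of 2 experiments. Replication timing (RT) was measured by BrdU labelling and sorting of S phase into 4 fractions in 8 libraries. The series holds 39 samples, and the rest were not analysed here. For each assay 1 list of domains was used, and signal tracks of single replicates were not analysed here. In these lists a gene has 1 wrapping value and 1 RT value with no spread between replicates and no read count behind it, and comparisons are counts set beside all genes without a test. No expression was measured in these lists, so the label of embryonic stem cell could not be checked against marker genes, and whether any member is transcribed in these cells is not addressed.

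A nucleosome wrapping domain (NRD) is a run of 100 kb bins whose wrapping index, the z-score of the excess of long over short nucleosomal fragments, keeps 1 sign. A TiNRD has a positive score, taken as tighter wrapping of DNA on nucleosomes than the genome average, although other factors can contribute to the index, and a LoNRD has a negative score. An RT domain has a positive or negative log2 ratio of early to late S-phase fractions and is called early or late. Each gene took the calls of the domains at its midpoint, and the score of a gene is the score of its whole domain. NRD borders fall on multiples of 100 kb and RT borders on multiples of 50 kb, so neighbouring genes usually share both values by construction.

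The members were spread over both kinds of domain. In the NRD list 64 of the 93 lay in TiNRDs and 29 in LoNRDs, which is 31.2% (95% exact Clopper-Pearson interval 22 to 41.6%) against 20.3% of all genes. In the RT list 62 were early, 25 were late and 6 had no call. The late share was 26.9% (18.2 to 37.1%) against 21.4% of all genes. Members that were both in a LoNRD and late numbered 17, or 18.3% (11 to 27.6%), against 13.5% of all genes. The discordant combinations were near their background: 8 members, 8.6% (3.79 to 16.2%), were late within a TiNRD against 7.49% of all genes, and 6 members, 6.45% (2.4 to 13.5%), were early within a LoNRD against 5.33%.

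These intervals cover counting error only and take each gene as separate, whereas the 29 LoNRD members lay in 7 domains and the 25 late members in 6. When each tandem cluster was counted once by the call of most of its members, the LoNRD share was 18.8% and the late share 15.6%. When domains with an absolute value under 0.5 were taken as no call, 9.68% of the members lay in a LoNRD against 13.3% of all genes, and 11.8% were late against 17.6%. Without the Cyp2c cluster, with genes counted 1 by 1, the LoNRD share was 21.5% and the late share 19%. With the limit of 0.5, applied to members and all genes alike, both shares were thus below the background. When clusters were counted once or the Cyp2c cluster was left out, only the members were changed. The background stayed the count over all genes, so those shares have no matched background. They show only how far the shares of the members rest on clusters. The interval of the late share of all 93 members (18.2 to 37.1%) includes 21.4%.

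Most LoNRD and late members lay in domains with values nearer to 0 than is usual for genes of these kinds. The median score of LoNRD members was -0.30 against -0.67 over all LoNRD genes, and their scores ran from -0.73 to -0.22. Late members had a median RT value of -0.37 against -0.73 over all late genes, with a range from -0.80 to -0.33. The exceptions were the LoNRD of Cyp7b1 (-0.73) and the late domains of the Cyp2j (-0.80) and Cyp3a genes (-0.77). On the other side, TiNRD members had a median score of 1.08 against 0.87 over all TiNRD genes, and early members a median RT value of 1.53 against 1.16. Over all 93 members the median score was 0.89 against 0.76 for all genes, and the median RT value 1.06 against 0.98.

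**Figure D1:**
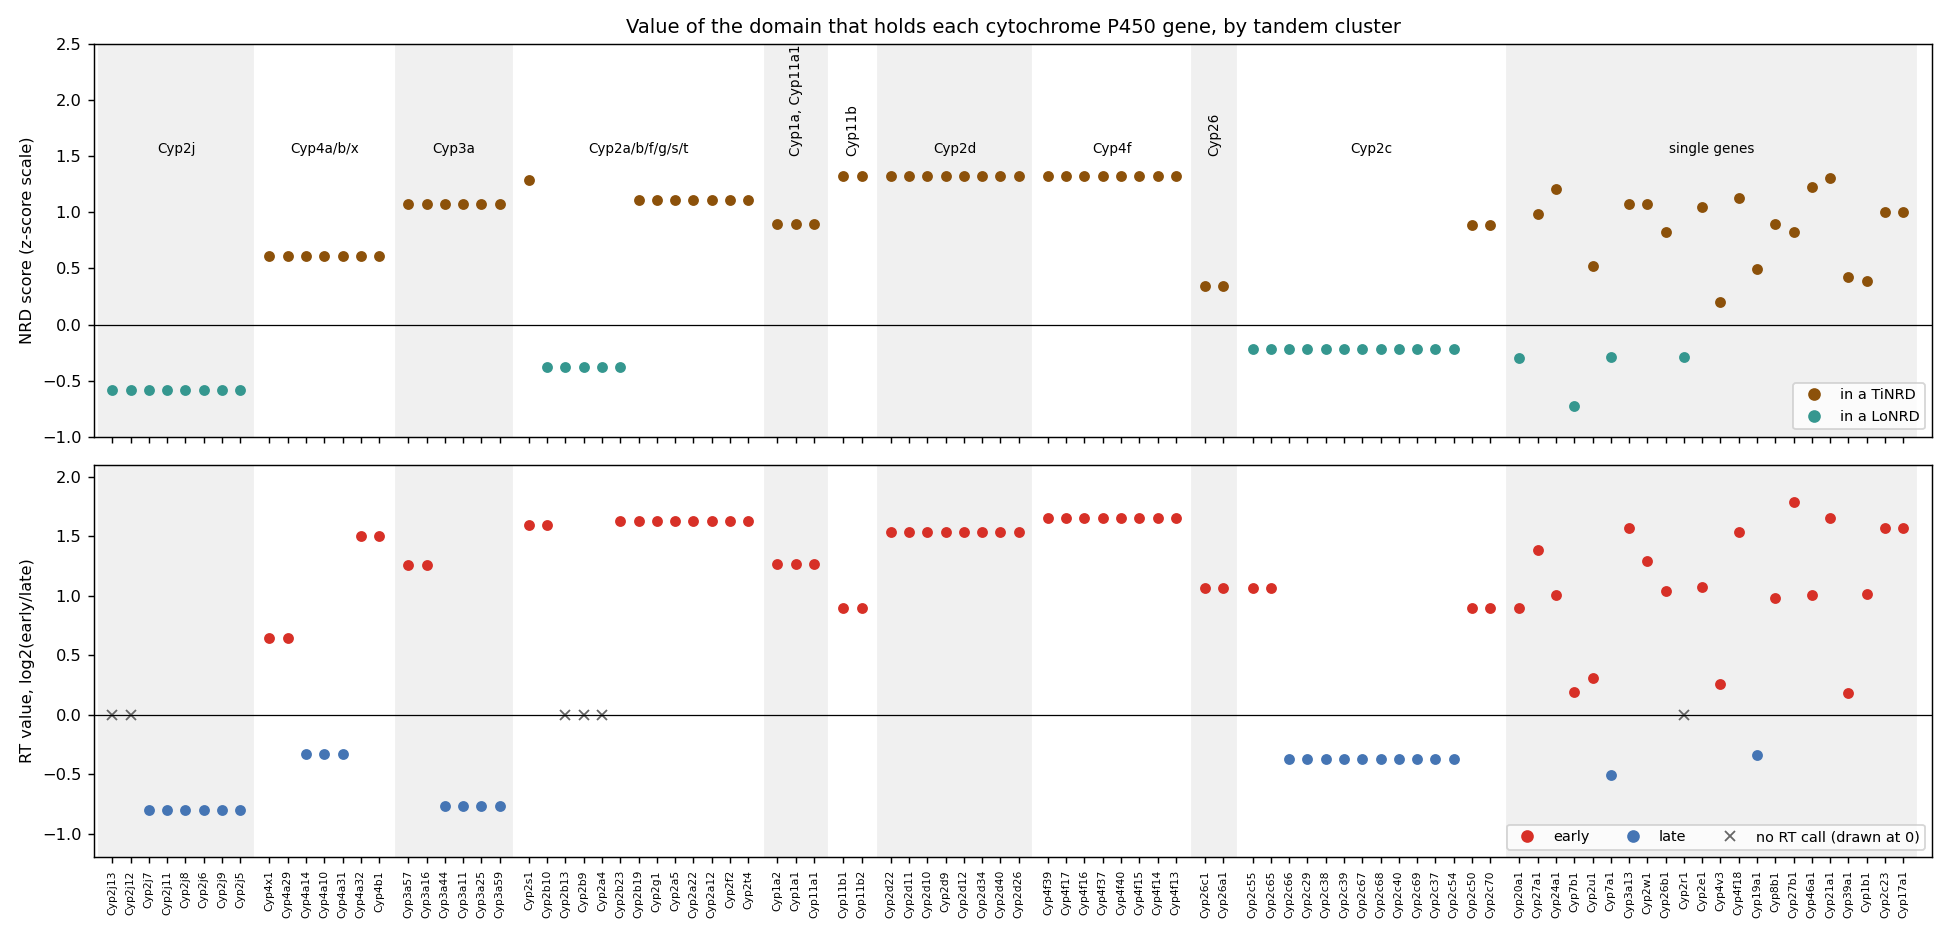
Domain value of each of the 93 members, by tandem cluster in genomic order and then the single genes. The upper panel gives the NRD score (z-score scale) and the lower panel the RT value (log2 of early over late), each point is 1 gene with the value of its domain, and crosses mark the 6 members without an RT call. Members of a cluster mostly share a value, and the negative values come from the Cyp2j, Cyp2c, Cyp2a/b, Cyp3a and Cyp4a genes and a few single genes.

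Tandem clusters and single genes were compared because a cluster may fill a domain of its own. Of the 71 tandem members 25 lay in LoNRDs (35.2%) and 23 were late (32.4%), while of the 22 single genes 4 lay in LoNRDs (18.2%) and 2 were late (9.09%). Over all genes 20.3% lay in LoNRDs and 21.4% were late, so the late share of tandem members was above the background and that of single genes below it. Counting genes, the tandem share was higher by 17 percentage points for LoNRDs (95% interval -7.65 to 34.9, by Newcombe's method from the exact intervals) and by 23.3 for late domains (0.591 to 37.8), with genes of 1 cluster taken as separate. With domains under an absolute value of 0.5 taken as no call the differences were 6.72 and 9.54. Counting each cluster once, 2 of 10 clusters lay mostly in a LoNRD and 3 of 10 were mostly late, and the differences from single genes were 1.82 and 20.9 percentage points. Without the Cyp2c cluster, the largest with 14 members, they were 4.63 and 13.7. The LoNRD interval includes 0, and its difference moved to near 0 when clusters were counted once. The late interval only just leaves out 0 and takes the genes of 10 clusters as separate. No interval was computed with clusters counted once. The median score was 0.89 for tandem members and 0.86 for single genes.

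The 10 clusters fell into 4 patterns. In 5 clusters every member was in a TiNRD and early (23 members). In 1 cluster every member was in a LoNRD (8 members). In 2 clusters all members shared a TiNRD but were split between early and late (13 members). In the other 2 clusters an NRD border ran through the cluster itself (27 members).

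The Cyp2c cluster on chromosome 19 (39007019 to 40187333) holds enzymes of drug and arachidonic acid metabolism and crossed both kinds of border. Its first 12 genes, from Cyp2c55 to Cyp2c54, lay in a LoNRD of 1300 kb with a score of -0.22. The last 2 genes, Cyp2c50 and Cyp2c70, lay in the next domain, a TiNRD with a score of 0.89. By replication timing, Cyp2c55 and Cyp2c65 were early with a value of 1.06. The next 10 genes, Cyp2c66 to Cyp2c54, were late at -0.37, and Cyp2c50 and Cyp2c70 were early again at 0.90. The late domain (39150001 to 40100000, 950 kb) held 10 protein-coding genes, and all 10 were Cyp2c members.

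The NRD and RT borders at the far end of the Cyp2c cluster coincided at base 40100000, inside Cyp2c50. The midpoint of Cyp2c50 was 1.82 kb from that border, the smallest distance to an NRD border among the members, and its start lay on the LoNRD and late side. The near border of the late domain, at base 39150000, ran through Cyp2c66, whose midpoint was 0.485 kb from it. Calls of these genes at their start instead of their midpoint were therefore reversed: Cyp2c50 became LoNRD and late, and Cyp2c66 became early.

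The promoters of the most alike pair with differing calls are given for this cluster and for the Cyp3a and Cyp2a genes, as RefSeq sequence of GRCm38.p6 from 250 bases before to 50 after the start, 5′ to 3′, with capitals where a base does not match the partner in a global alignment. Cyp2c37 (chr19:39992174-39992473, plus strand) was in a LoNRD and late. Cyp2c50 (chr19:40089429-40089728, plus strand) was called TiNRD and early at its midpoint, although this promoter itself lies before the border. The pair was 86.6% identical.
Cyp2c37: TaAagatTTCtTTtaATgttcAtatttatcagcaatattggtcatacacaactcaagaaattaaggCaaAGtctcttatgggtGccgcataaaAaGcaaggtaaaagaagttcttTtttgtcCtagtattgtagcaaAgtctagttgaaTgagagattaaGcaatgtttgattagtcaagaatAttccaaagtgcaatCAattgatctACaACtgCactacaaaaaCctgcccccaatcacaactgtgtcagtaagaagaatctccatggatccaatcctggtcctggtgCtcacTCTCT
Cyp2c50: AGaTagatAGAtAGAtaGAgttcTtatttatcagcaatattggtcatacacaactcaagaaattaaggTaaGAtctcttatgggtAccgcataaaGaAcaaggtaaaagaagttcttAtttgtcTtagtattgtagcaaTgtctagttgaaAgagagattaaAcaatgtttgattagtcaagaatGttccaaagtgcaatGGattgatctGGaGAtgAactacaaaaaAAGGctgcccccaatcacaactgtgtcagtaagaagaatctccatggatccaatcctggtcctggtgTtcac

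The Cyp3a cluster on chromosome 5 (145345279 to 146113287), which includes Cyp3a11, a major drug-metabolising enzyme of mouse liver, showed a split in RT calls without a split in NRD calls. All 6 members lay in 1 TiNRD of 17100 kb with a score of 1.08. NRDs were called on a smoothed index of 100 kb bins, and the score is that of the whole domain. That score does not show whether wrapping changed over the late domain, and this was not tested. The shortest NRD called on chromosomes 1 to 19 was 300 kb. Cyp3a57 and Cyp3a16 were early at 1.26. Cyp3a44, Cyp3a11, Cyp3a25 and Cyp3a59 were late at -0.77, and the next domain beyond them was early at 0.82. The late domain (145500001 to 146150000, 650 kb) held 6 protein-coding genes, these 4 members and the copy-letter genes Cyp3a41a and Cyp3a41b.

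Among the members the timing border at base 145500000 separates Cyp3a16 (chr5:145469674-145469973, minus strand), early, from its next neighbour Cyp3a44 (chr5:145805825-145806124, minus strand), late. Their promoters were 93.4% identical, and both carried the TATA box letters TATAAA, at -126 in Cyp3a16 and -122 in Cyp3a44 relative to the start. The midpoint of Cyp3a16 was 47 kb from the timing border, less than the RT step of 50 kb, so its early call is uncertain.
Cyp3a16: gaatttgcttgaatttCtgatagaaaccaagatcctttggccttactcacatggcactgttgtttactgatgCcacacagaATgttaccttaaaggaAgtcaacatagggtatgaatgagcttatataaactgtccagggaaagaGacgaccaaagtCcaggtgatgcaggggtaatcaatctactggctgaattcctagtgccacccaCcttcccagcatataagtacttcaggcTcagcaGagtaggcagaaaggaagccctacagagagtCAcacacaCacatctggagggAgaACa
Cyp3a44: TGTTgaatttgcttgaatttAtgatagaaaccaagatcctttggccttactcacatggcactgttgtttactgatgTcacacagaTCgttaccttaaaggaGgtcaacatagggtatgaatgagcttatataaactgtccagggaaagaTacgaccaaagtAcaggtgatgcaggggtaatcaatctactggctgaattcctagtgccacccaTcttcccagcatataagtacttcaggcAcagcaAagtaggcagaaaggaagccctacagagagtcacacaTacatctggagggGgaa

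The cluster from Cyp4x1 to Cyp4b1 on chromosome 4 (115106323 to 115647723), made of fatty acid hydroxylases, had the same arrangement of calls, with the same limit. Its 7 members shared a TiNRD with a score of 0.61. Cyp4x1 and Cyp4a29 were early at 0.64, whereas Cyp4a14, Cyp4a10 and Cyp4a31 were late at -0.33. Cyp4a32 and Cyp4b1 on the other side were early at 1.50. The late domain (115250001 to 115600000) was 350 kb long, the shortest length in the RT list of chromosomes 1 to 19. It held 6 protein-coding genes, the 3 late members and the copy-letter genes Cyp4a12a, Cyp4a12b and Cyp4a30b. Its near border cut Cyp4a29 at 1.68 kb from the midpoint of that gene.

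The late domains of the Cyp2c, Cyp3a and Cyp4a genes thus held 22 protein-coding genes, all of them P450 genes, and 17 of these were members. Each of the 3 was directly flanked by early domains on both sides. Late domains with at least 5 protein-coding genes numbered 261 on these autosomes, and in 18 of them all the genes carried the same symbol stem. The stems of those 18 included Olfr in 4 domains and Cyp in 3, and the others had 1 or 2 domains each. Among early domains with the same minimum, 2 of 549 held a single stem, among LoNRDs 5 of 228 and among TiNRDs 1 of 420, none of them Cyp. The kinds were not matched in gene number. The late domains of these 3 clusters held 6 to 10 genes, whereas the early domain of the Cyp4f genes held 431. The part of gene number in these counts was not tested.

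The cluster from Cyp2s1 to Cyp2t4 on chromosome 7 (25802475 to 27158668) had the reverse arrangement, a LoNRD with no late call in it. Cyp2s1 lay in a TiNRD with a score of 1.29, and the 7 genes from Cyp2b19 to Cyp2t4 in a TiNRD with a score of 1.11. Between them Cyp2b10, Cyp2b13, Cyp2b9, Cyp2a4 and Cyp2b23 lay in a LoNRD of 800 kb (25900001 to 26700000) with a score of -0.38. Cyp2b10, an enzyme induced by the nuclear receptor CAR, was early at 1.60 despite its LoNRD call, and Cyp2b23 was early at 1.62. Cyp2b13, Cyp2b9 and Cyp2a4 had no RT call. The NRD border at base 25900000 cut Cyp2b10, 12.1 kb from its midpoint, and its start lay in the TiNRD. Cyp2b23 was 24.2 kb from the other border. The span of this cluster also held 5 genes of other families, Vmn1r184, Vmn1r185, Nlrp9c, Nlrp9a and Nlrp4a, and the LoNRD held 10 protein-coding genes in all, 5 of them members.

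Cyp2a4 (chr7:26306942-26307241, plus strand), in the LoNRD with no RT call, and Cyp2a5 (chr7:26835089-26835388, plus strand), in the early TiNRD, had the most alike promoters of all pairs with differing calls. They were 97.7% identical, and both carried TATAAA close to the start, at -28 and -29.
Cyp2a4: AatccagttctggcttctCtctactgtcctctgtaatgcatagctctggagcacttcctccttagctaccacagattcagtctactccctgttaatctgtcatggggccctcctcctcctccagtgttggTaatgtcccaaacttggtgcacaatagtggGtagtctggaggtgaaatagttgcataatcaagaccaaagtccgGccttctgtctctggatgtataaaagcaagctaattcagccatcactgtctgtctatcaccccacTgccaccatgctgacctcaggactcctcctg
Cyp2a5: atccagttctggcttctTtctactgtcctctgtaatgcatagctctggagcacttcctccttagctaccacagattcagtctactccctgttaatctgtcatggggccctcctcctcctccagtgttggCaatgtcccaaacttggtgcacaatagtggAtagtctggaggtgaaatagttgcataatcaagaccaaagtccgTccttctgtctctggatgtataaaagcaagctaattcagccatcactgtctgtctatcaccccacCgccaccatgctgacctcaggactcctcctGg

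The Cyp2j cluster on chromosome 4 (96027534 to 96664154), epoxygenases of arachidonic acid, was the only one wholly within a LoNRD. Its 8 members shared a score of -0.59. Cyp2j7, Cyp2j11, Cyp2j8, Cyp2j6, Cyp2j9 and Cyp2j5 were late at -0.80, the lowest RT value among the members. Cyp2j13 and Cyp2j12, at the start of the cluster, fell in a gap between this late domain and another late domain and had no RT call. The late domain held 4 genes that are not P450 genes beside the 6 members.

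**Figure D2:**
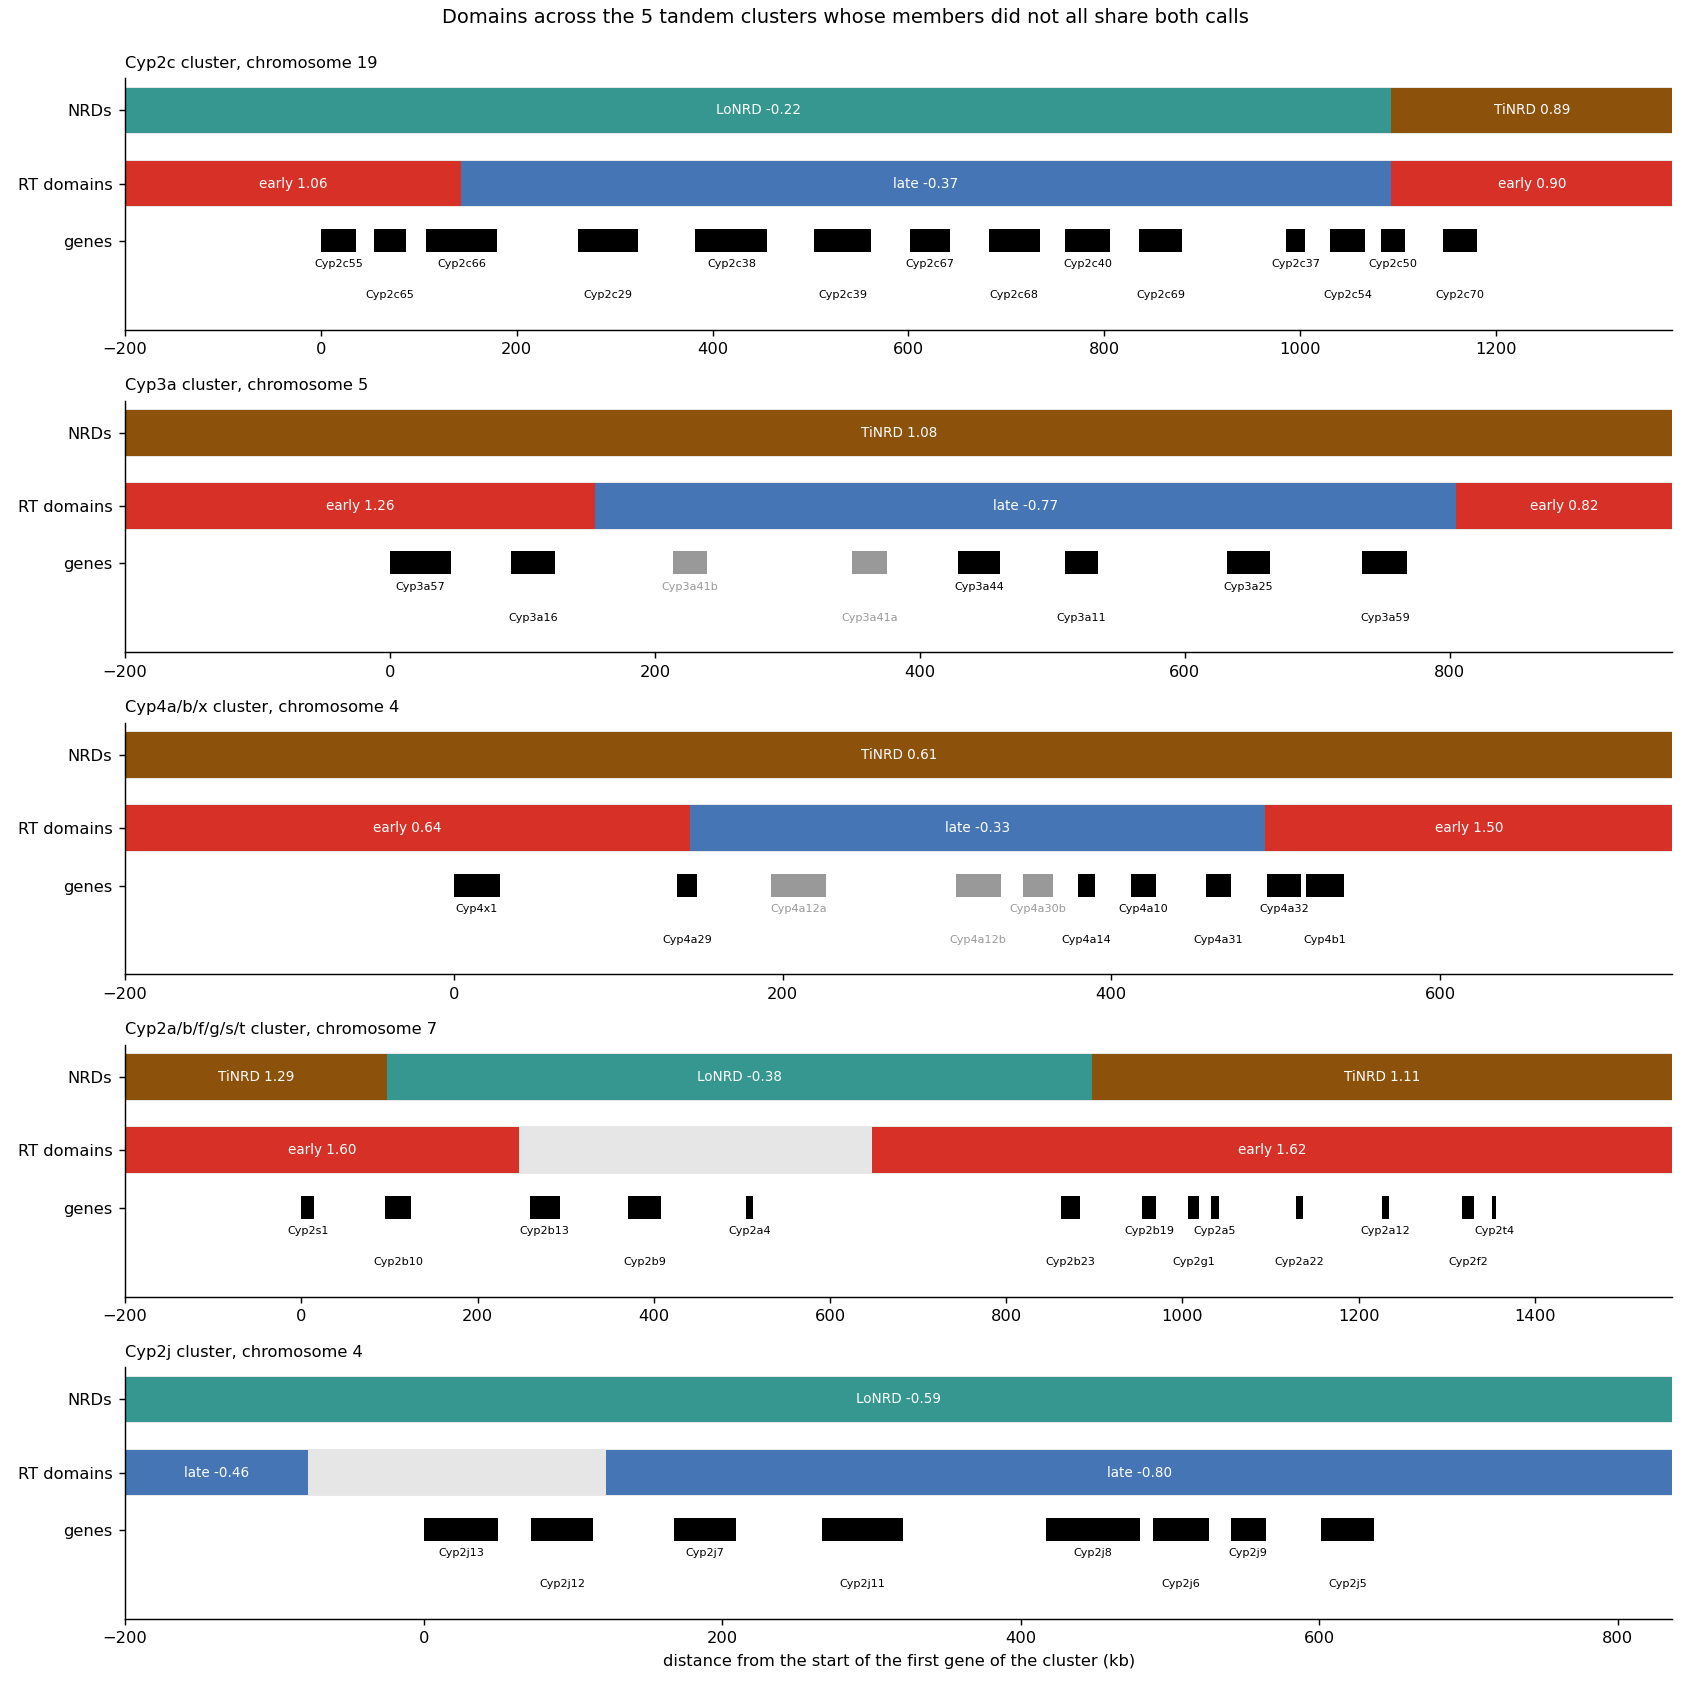
NRDs, RT domains and genes of the 5 tandem clusters whose members did not all share both calls, drawn against the distance from the start of the first gene of the cluster (kb) with 200 kb on either side. Numbers in the bars are the score or log2 value of the domain, light grey bars have no call, black boxes are members and grey boxes are copy-letter genes. The late domains of the Cyp2c, Cyp3a and Cyp4a genes sit between early domains, and at Cyp2c50 both kinds of border coincide.

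The other 5 clusters were uniform. The Cyp2d cluster on chromosome 15, 8 genes from Cyp2d22 to Cyp2d26 that include enzymes of drug metabolism, had a score of 1.32 and an RT value of 1.53. The 8 Cyp4f genes on chromosome 17, from Cyp4f39 to Cyp4f13, which act on leukotrienes and fatty acids, had a score of 1.32, the highest among the members, and an RT value of 1.65. Clusters of 8 members could thus also lie wholly in an early TiNRD.

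The smaller uniform clusters hold hormone and retinoid enzymes. Cyp11b1 and Cyp11b2, the last steps of glucocorticoid and aldosterone synthesis, shared a score of 1.32 and an RT value of 0.90. Cyp1a2, Cyp1a1 and Cyp11a1, the first 2 metabolising aromatic compounds and the third starting steroid synthesis, shared a score of 0.90 and an RT value of 1.26. Cyp26c1 and Cyp26a1, which degrade retinoic acid, had a low score for a TiNRD, 0.35, and an RT value of 1.06.

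Pairs of neighbouring members less than 500 kb apart show how often a border separates genes of a cluster. The NRD kind differed in 3 of 61 pairs (4.92%) against 2.91% of 19594 pairs of all genes with both calls. The RT kind differed in 5 of 55 pairs with both calls (9.09%) against 3.69% of 19075 pairs. Neighbouring members were farther apart, with a median of 75 kb between midpoints against 39.3 kb, and the part of that distance in the difference was not tested.

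Of the 22 single genes, 17 were both in a TiNRD and early (77.3%), against 69.4% of all genes. Among the steroid hormone genes, Cyp17a1, needed for androgen synthesis, had a score of 1.00 and an RT value of 1.57. Cyp21a1, needed for glucocorticoid and mineralocorticoid synthesis, had a score of 1.31 and an RT value of 1.65. Cyp19a1, the aromatase that makes oestrogens, was the exception: it lay in a TiNRD with a score of 0.50 but in a late domain of 400 kb with a value of -0.34. All 6 steroid hormone genes were thus in TiNRDs, against 78.6% of all genes, and 5 of the 6 were early, against 75.3%.

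The bile acid and cholesterol genes, all single, were more divided. Cyp7a1, the rate-limiting enzyme of bile acid synthesis, was in a LoNRD of 400 kb with a score of -0.29, 29.4 kb from its border, and was late at -0.51. Cyp7b1, an oxysterol hydroxylase, had a score of -0.73, the lowest among the members, but an early value of only 0.19, and an RT border lay 7.64 kb from its midpoint. Cyp39a1, another oxysterol hydroxylase, had a score of 0.42 and the lowest early value of the members, 0.18. The other 3 were plainly positive in both lists: Cyp27a1, a mitochondrial sterol hydroxylase, at 0.98 and 1.39, Cyp8b1, needed for cholic acid, at 0.89 and 0.98, and Cyp46a1, the cholesterol hydroxylase of brain, at 1.22 and 1.01 (score and RT value).

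In the vitamin D set, Cyp27b1, which makes the active hormone, had a score of 0.83 and an RT value of 1.79, the highest among the members. Cyp24a1, which degrades the hormone, had a score of 1.21 and an RT value of 1.00. Cyp2r1, which performs the first hydroxylation in the liver, lay in a LoNRD of 500 kb with a score of -0.29 and had no RT call. The promoter of Cyp2r1 (chr7:114562923-114563222, minus strand), shown with CG dinucleotides in capitals because it was the most CG-rich of the members in LoNRDs, had 22 of them.
Cyp2r1: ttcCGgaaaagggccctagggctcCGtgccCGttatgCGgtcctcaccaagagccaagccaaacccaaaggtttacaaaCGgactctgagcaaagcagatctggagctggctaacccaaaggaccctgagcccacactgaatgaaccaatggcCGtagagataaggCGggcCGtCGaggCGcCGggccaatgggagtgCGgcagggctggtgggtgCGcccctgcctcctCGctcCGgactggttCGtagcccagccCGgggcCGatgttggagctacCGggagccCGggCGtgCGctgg

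The retinoic acid gene Cyp26b1 had a score of 0.83 and an RT value of 1.04. All 3 retinoic acid genes were thus in TiNRDs and early, against 69.4% of all genes, and Cyp26c1 and Cyp26a1 share both domains.

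The remaining single genes act on fatty acids or foreign compounds, except Cyp20a1, whose substrate is not settled. Cyp20a1 was in a LoNRD with a score of -0.30 but early at 0.89. Cyp4v3 and Cyp2u1, fatty acid hydroxylases, had low positive values, 0.20 and 0.25 for Cyp4v3 and 0.52 and 0.31 for Cyp2u1 (score and RT value). Cyp1b1 had a score of 0.39 and an RT value of 1.02. The other single genes had scores between 1.00 and 1.13: Cyp2c23 with an RT value of 1.57, Cyp2e1, which metabolises ethanol, with 1.07, Cyp3a13 with 1.56, Cyp2w1 with 1.29 and Cyp4f18 with 1.54. Cyp2w1 was the single gene farthest from an NRD border, at 5855 kb. Over all members only the Cyp2d genes lay deeper, with Cyp2d22, Cyp2d11 and Cyp2d10 at 7425, 7408 and 7395 kb.

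By role, counts can be read against the 20.3% of all genes in LoNRDs and the 21.4% that were late. Of 48 genes of drug and foreign-compound metabolism 17 lay in LoNRDs (35.4%) and 14 were late (29.2%), and of 26 fatty acid and eicosanoid genes 8 lay in LoNRDs (30.8%) and 9 were late (34.6%). The 18 genes of the steroid, bile acid, vitamin D and retinoic acid roles had 3 in LoNRDs and 2 late. Roles and tandem arrangement overlap, since 43 of the 48 and 23 of the 26 genes were tandem, and their parts cannot be told apart here.

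The partners and regulators of the enzymes were compared from lists drawn up by function. Of 6 electron donors and their partners on these autosomes all lay in TiNRDs, against 78.6% of all genes, and 5 were early, against 75.3%. Por, the reductase that serves the microsomal enzymes, had a score of 1.08 and an RT value of 1.57. Fdx1, the ferredoxin of the mitochondrial enzymes, was late at -1.01 with a score of 0.13, whereas its reductase Fdxr had 1.49 and 1.62. Of 14 nuclear receptors and related factors that regulate P450 genes, 13 were in TiNRDs and early, among them Nr1i2, Nr1i3, Ppara and Vdr, against 69.4% of all genes. The other was Ahr, the receptor that induces Cyp1a1, with a score of -0.48 and an RT value of -0.98, while Cyp1a1 itself was in an early TiNRD.

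Other families of detoxifying enzymes had LoNRD shares on both sides of that of the P450 genes. Over all genes 20.3% lay in LoNRDs and 21.4% were late. Of 18 UDP-glucuronosyltransferase (UGT) genes 12 lay in LoNRDs and 8 were late, with 8 lacking an RT call. Of 21 sulfotransferase (SULT) genes 14 lay in LoNRDs and 12 were late. Of 22 glutathione S-transferase (GST) genes none lay in a LoNRD and 1 was late. The P450 members, at 31.2% in LoNRDs, stood between the GST genes on one side and the UGT and SULT genes at 66.7% on the other. These families are also made of tandem copies that share domains, and the shares were not tested against each other. P450 pseudogenes, 30 on the same chromosomes, had 33.3% in LoNRDs and 36.7% late. Many lay within the spans of the tandem clusters, with 9 in Cyp2d, 5 in Cyp2j and 5 in the Cyp4x1 to Cyp4b1 cluster. They thus share domains with members and are not a separate group.

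**Figure D3:**
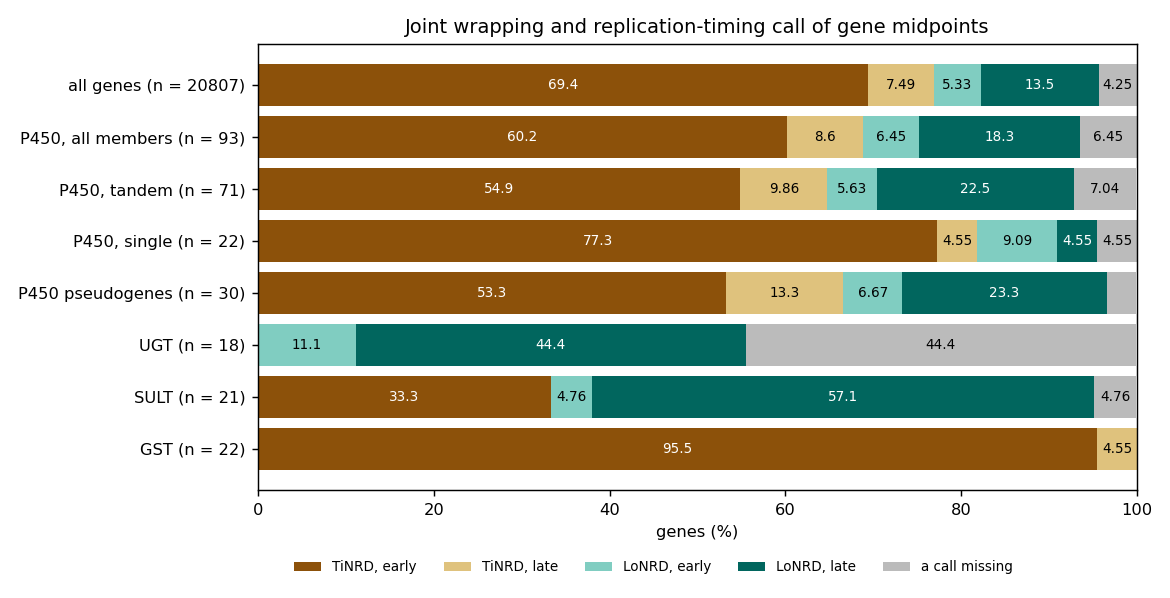
Share of genes (%, horizontal axis) with each joint NRD and RT call, for all protein-coding genes, the P450 members, tandem and single members, P450 pseudogenes, and the UGT, SULT and GST families, with the number of genes beside each name. Tandem members have 22.5% in late LoNRDs against 4.55% of single genes and 13.5% of all genes, and GST genes have none.

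The base composition around a gene was set beside its calls. A/T content was measured in the 100 kb around each midpoint and all genes were divided into 3 groups of equal size, with limits at 53.2 and 57.6%. The members had a median A/T content of 57.3% against 55.5% over all genes, and 44 of the 93 fell in the high group. In the high group 28 of 44 members (63.6%) lay in LoNRDs against 58.6% of all genes, and 24 (54.5%) were late against 53.3%. In the middle group 1 of 35 members lay in a LoNRD (2.86% against 2.11%) and 1 was late (2.86% against 10.3%). In the low group none of 14 members lay in a LoNRD or was late, against 0.216% and 0.663% of all genes. The high group held nearly all LoNRD and late members, and the part of base composition in their calls was not tested. Over all genes it likewise held 4067 of the 4228 LoNRD genes and 3697 of the 4455 late genes. LoNRD members had a median A/T content of 60.8%, the same as all LoNRD genes.

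**Figure D4:**
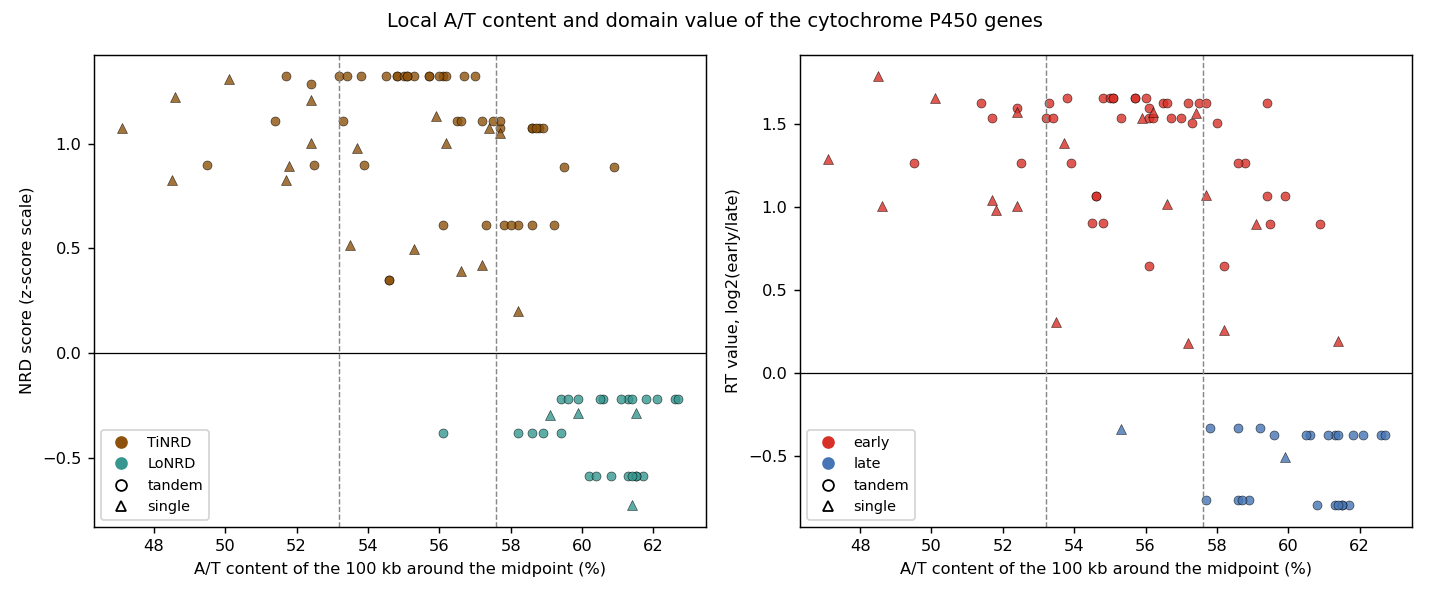
A/T content of the 100 kb around each member's midpoint (%, horizontal axis) against its NRD score (left) and RT value (right). Circles are tandem members, triangles single genes, and dashed lines the limits of the 3 groups at 53.2 and 57.6%. All LoNRD members but 1 and all late members but 1 lie in the high group, which also holds 4067 of all 4228 LoNRD genes and 3697 of all 4455 late genes.

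Near copies share sequence, which bears on how many reads can be placed. The share of 50-base words in a cluster that occur elsewhere on the same chromosome was 27.9% for Cyp3a, 24.5% for the Cyp4x1 to Cyp4b1 cluster, 23.3% for Cyp2c, 20.9% for the Cyp2s1 to Cyp2t4 cluster and 12.5% for Cyp2j. In the uniform clusters it was 17.1% for Cyp2d, 6.77% for Cyp11b, 6.33% for Cyp4f, 2.37% for the Cyp1a and Cyp11a1 cluster and 0.119% for Cyp26. Of the 6 clusters with over 10% repeated words, 5 were split or LoNRD and 1, Cyp2d, was in an early TiNRD. Cyp4f, also of 8 members and in an early TiNRD, was below that limit. Any word that recurs on the chromosome was counted, not only words shared by near copies. No such share was computed over all genes, so these values have no background. For single genes the share in the surrounding 100 kb ran from 0.945% at Cyp19a1 to 21.9% at Cyp21a1. The part of repeated sequence in the calls was not tested.

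Promoters were compared to see whether genes with differing calls differ at their start. The RefSeq promoter sequences matched 72 of the 93 members and 15703 of all 20807 genes. Among members they matched 58 of 71 tandem and 14 of 22 single genes. The sequence nearest to the annotated start was taken. It lay 18940 bases from that start for Cyp2d9, 17680 for Cyp2c29, 9685 for Cyp1a1 and 8387 for Cyp11a1. The median number of CG dinucleotides, where DNA methylation acts, was 3 in the members against 15 in all promoters. TATAAA, searched on both strands, occurred in 30 of the 72 (41.7%) against 12.9% of all promoters. The GC box letters GGGCGG occurred on either strand in 23.6% against 48.8%, and each GC box also holds a CG. Among the members TATAAA was present in 40.5% of the 42 early TiNRD promoters and in 43.3% of the 30 promoters in a LoNRD or late domain, and over all genes in 8.76% and 23.7%. GGGCGG was present in 31% of the former member promoters and 13.3% of the latter, and over all genes in 56.8% and 28.4%. At least 10 CG dinucleotides were present in 16.7% and 6.67% of these member promoters, with median counts of 3 and 2. Over all genes these shares were 69.8% and 35.6%, with median counts of 18 and 4.

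Genes with closely similar promoters could have opposite calls, as with Cyp2a4 and Cyp2a5 in wrapping. Cyp3a16 and Cyp3a44 differed in timing, but Cyp3a16 lay 47 kb from the RT border, within 1 step of 50 kb. The promoters of Cyp2c37 and Cyp2c50 themselves lie on the same side of both borders. Of 218 pairs of members of the same cluster with both promoters at hand, 83 had opposite kinds in at least 1 list by midpoint, and 5 of the 83 had at least 80% identity. A further 16 pairs differed only in that 1 gene had no RT call, and 119 had equal calls, 7 of them with at least 80%.

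The promoters of single genes were richer in CG than those of tandem members, but poorer than those of all genes. The median CG count was 7.5 in single genes, 2 in tandem members and 15 in all genes. At least 10 CG dinucleotides were present in 6 of 14 single-gene promoters (42.9%) and 3 of 58 tandem promoters (5.17%), against 60.2% of all promoters. Cyp2r1 and Cyp20a1, both in LoNRDs, were among the 6 with 22 and 20. Of the 32 tandem members in a LoNRD or late domain 27 had a promoter sequence, and none of these had at least 10, against 35.6% over all genes.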

How the data were processed

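The study's libraries came from R1 mouse embryonic stem cells. Per the labels and the study's methods, reads were trimmed with cutadapt 4.3, aligned to mm10 with Bowtie2 2.5.1, and duplicates were marked with Picard and removed with SAMtools, keeping proper pairs above a mapping quality minimum. For wrapping, the authors counted H3 fragments by length in 100 kb bins with bedtools 2.30.0, and the deposited score is the smoothed z-score of the excess of long over short fragments, 1 value per domain called with FindHiCCompartments. For RT, the authors deposited per domain the log2 ratio of early to late S-phase fractions, scaled to equal totals, quantile normalized and called in 50 kb windows with the same program. Whether the 2 experiments were pooled for these lists is not stated in the sources used here.

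Genes and midpoints were taken from GENCODE vM21 on GRCm38, the build of mm10. The domains of all 19 autosomes lay within the GRCm38 chromosomes. Tandem members had another member under 500 kb away by midpoint. Members and lists were chosen with earlier results of these data known. Genes were named by a rule: every single gene, the first and last gene of each cluster, members whose call differed from most of their cluster, those nearest to and farthest from an NRD border, those of the domains with extreme values, and those without a call. Shares carry 95% exact Clopper-Pearson intervals (scipy 1.17.1). Since each list used holds 1 call without replicate values, no test was run. Promoters were aligned globally with Biopython 1.88. Assignment and word counting were checked on simulated data. The counts over neighbouring pairs, single-stem domains and promoter pairs were added after the domain calls were seen. Alternatives covered the position used for a gene, the symbols counted, domain strength, length and gaps, cluster size and tandem distance.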

Additional observations from a re-analysis of the deposited data

How the results depend on the processing

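The 10 summary values were recomputed under 73 alternative settings in all, and 65 of these stayed within the counting interval of the value (within 1.5 times for counts of clusters). None changed sign. Taking domains with an absolute value under 0.5 as no call moved the LoNRD share of members to 9.68%, the late share to 11.8% and the share with both to 6.45%. Leaving out the Cyp2c cluster moved the LoNRD share to 21.5% and the share with both to 8.86%. Counting each tandem cluster once moved the LoNRD share to 18.8%, the late share to 15.6% and the share with both to 9.38%. These settings leave fewer domains or fewer genes by construction. The number of tandem clusters was 10 to 12, with more than 1 NRD call in 2 or 3 of them and more than 1 RT call in 4 or 5. A missing call counted here as a call of its own. The Cyp2j cluster (6 late, 2 without a call) and the Cyp2s1 to Cyp2t4 cluster (10 early, 3 without a call) each hold only 1 RT kind.

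With the symbols that end in a copy letter the late share was 30.6% and the LoNRD share 29.6%. Calls at the start of the gene differed from those at the midpoint for 2 members in each list, with equal shares. No paired analysis was possible because the list used for each assay holds no value per replicate, and for the same reason no replicate could be left out. The lists hold no read counts. NRD borders move in steps of 100 kb and RT borders in steps of 50 kb. A gene within 1 step of a border, such as Cyp2c50, Cyp2c66, Cyp4a29 or Cyp3a16, therefore has an uncertain call.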
